A study of Mus musculus with 14 samples.

Results

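The genes of hepatic glycogen turnover were followed through the livers of 14 diabetic mice. The set comprised 9 of the 55487 genes in the count table, picked by name: the glycogen-targeting subunits of protein phosphatase 1 encoded by *Ppp1r3g*, *Ppp1r3b*, *Ppp1r3c* and *Ppp1r3d*, the synthesis genes *Ugp2*, *Gys2* and *Gbe1*, and the breakdown genes *Pygl* and *Phka2*. The choice was made with results of the indole comparison known, *Ppp1r3g* having stood out in it. The difference of the 9 genes between the 2 treatment groups is therefore a description. Test outcomes of that comparison are given for them only as counts, which support nothing. Of the 9 genes, 8 passed the filter on low counts, and *Ppp1r3d* did not.

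Bulk RNA-seq was performed on the right liver lobe of male TALLYHO mice, an inbred strain that develops type 2 diabetes through several loci, with 7 mice given water as vehicle and 7 given indole, a bacterial product of tryptophan. The mice were 8 to 12 weeks old, received 20 mg/kg indole or water by oral gavage as 2 doses per day for 7 days, received 2 more doses between the 2 metabolic tests that every mouse underwent, and were culled on day 11. Fed or fasted state at collection is not given in the sources used here. Whole liver was sequenced, so fewer cells of a type and less RNA per cell cannot be told apart.

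Liver stores glucose as glycogen after a meal and releases it during fasting. UDP-glucose, made by the enzyme that *Ugp2* encodes, is the glucose donor for glycogen synthase (*Gys2* in liver), and the branching enzyme (*Gbe1*) adds the branch points. Phosphorylation by phosphorylase kinase, whose liver α subunit is encoded by *Phka2*, switches on glycogen phosphorylase (*Pygl* in liver), whereas protein phosphatase 1 switches phosphorylase off and synthase on. The Ppp1r3 proteins carry that phosphatase to the glycogen particle, and several of their transcripts are known to vary with feeding and fasting.

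Sequences upstream of the transcription start were examined because the targeting subunits share one task but differed widely in level. RefSeq promoter sequences of GRCm38.p6 were matched for 7 of the 9 genes, not for *Ppp1r3b* and *Gys2*. The 250 bases before each RefSeq start were searched on both strands for 7 short motifs, of which the E-box CACGTG and the CCAAT box are marked by capitals below (ATTGG is CCAAT on the other strand). The bases that Ensembl annotation places in an exon of the same gene are not printed. The stretch of *Ppp1r3g*, at chr13:35967656-35967852 on the plus strand, lies inside an intron of a longer annotated transcript. Those of *Ppp1r3c*, at chr19:36736654-36736854, and *Ppp1r3d*, at chr2:178414473-178414713, are on the minus strand and lie outside the gene. All are written 5′ to 3′.
Ppp1r3g: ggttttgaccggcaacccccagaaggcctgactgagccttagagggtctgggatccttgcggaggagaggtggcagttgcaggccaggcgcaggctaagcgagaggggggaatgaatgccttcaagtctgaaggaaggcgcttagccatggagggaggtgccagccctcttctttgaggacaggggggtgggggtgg
Ppp1r3c: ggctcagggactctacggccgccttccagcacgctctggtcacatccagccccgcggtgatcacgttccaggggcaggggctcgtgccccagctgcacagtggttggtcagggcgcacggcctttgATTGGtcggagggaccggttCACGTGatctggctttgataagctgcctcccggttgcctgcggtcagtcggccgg
Ppp1r3d: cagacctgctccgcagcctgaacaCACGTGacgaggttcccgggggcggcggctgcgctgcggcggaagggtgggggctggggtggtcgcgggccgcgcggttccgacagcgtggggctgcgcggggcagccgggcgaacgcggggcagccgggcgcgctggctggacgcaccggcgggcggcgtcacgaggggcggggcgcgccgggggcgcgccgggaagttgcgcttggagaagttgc

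The *Ppp1r3c* window held an E-box starting 104 bases and a CCAAT box starting 124 bases before the start. The *Ppp1r3d* window held an E-box at 226 bases, overlapping a half-site of cyclic AMP response elements (letters TGACG) at 222 bases, together with a second copy of that half-site at 68 bases. In *Ppp1r3g* no E-box was present, and its CCAAT box at 18 bases and cyclic AMP half-site at 40 bases lay within the exonic bases left out above. For comparison, among the 32851 mouse promoter windows of the same length the E-box occurred in 6.02%, the CCAAT box in 33.8% and the cyclic AMP half-site in 17.8%. Among the other matched genes, *Ugp2* held a CCAAT box at 49 bases and *Pygl* a cyclic AMP half-site at 44 bases, and no E-box was found in the windows of *Ugp2*, *Pygl*, *Gbe1* or *Phka2*. The forkhead letters TGTTTAC occurred in 3.17% of all windows, but in none of these genes. The same was true of the TATA box letters TATAAA, which occurred in 12.4% of all windows. *Pygl* had the nuclear receptor half-site, of letters AGGTCA, on the other strand at 128 bases. GC boxes, of letters GGGCGG, were present in 32.7% of windows and occurred upstream of *Ppp1r3g*, *Ppp1r3d*, *Ugp2*, *Pygl* and *Phka2*.

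Library totals ran from 15197498 to 21060376 counted reads (median 18117524 for vehicle and 17740715 for indole). Levels are given as CPM, the reads of a gene scaled to a common library size after TMM normalisation. Summed hepatocyte markers reached 63416 to 98139 CPM in each of the 14 livers (5 of 6 listed genes were analysed), and summed skeletal muscle markers stayed between 0 and 1.02 CPM, with *Acta1* and *Tnnt3* at 0 in every mouse. Of the 12653 genes tested between the groups with edgeR, 482 (3.81%) had an unadjusted *p* below 0.05 and 0 had an adjusted *p* below 0.05 (DESeq2, 719 and 0).

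To see which glycogen genes dominate the transcript pool, levels were divided by gene length. *Ugp2* was the most abundant, with 223±26.9 CPM per kilobase in the vehicle group (SD, *n*=7). *Pygl* (69.5±5.58 CPM per kilobase) and *Gys2* (58.9±8.27 CPM per kilobase) followed, and *Pygl* lay above *Gys2* in 12 of 14 mice. *Ppp1r3b* (22.3±3.41 CPM per kilobase) and *Gbe1* (21.5±1.79 CPM per kilobase) were next, with *Ppp1r3b* the higher of the pair in 10 of 14 mice. The ranges of *Pygl* and *Gys2*, and those of *Ppp1r3b* and *Gbe1*, overlapped across mice, so these neighbours did not separate beyond their spread.

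Lower down, *Ppp1r3c* had 8.77±2.17, *Phka2* 3.05±0.301, *Ppp1r3g* 0.878±0.373 and *Ppp1r3d* 0.0181±0.0156 CPM per kilobase in the vehicle group (SD, *n*=7 each). The order of the 9 genes was the same in the indole group, and in both groups with RLE scaling. Without division by length the vehicle order was kept, but in the indole group *Ppp1r3b* lay above *Gys2*. Across mice the highest *Ppp1r3g* level reached the lowest *Phka2* level, although *Phka2* exceeded *Ppp1r3g* within each of the 14 mice.

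**Figure D1:**
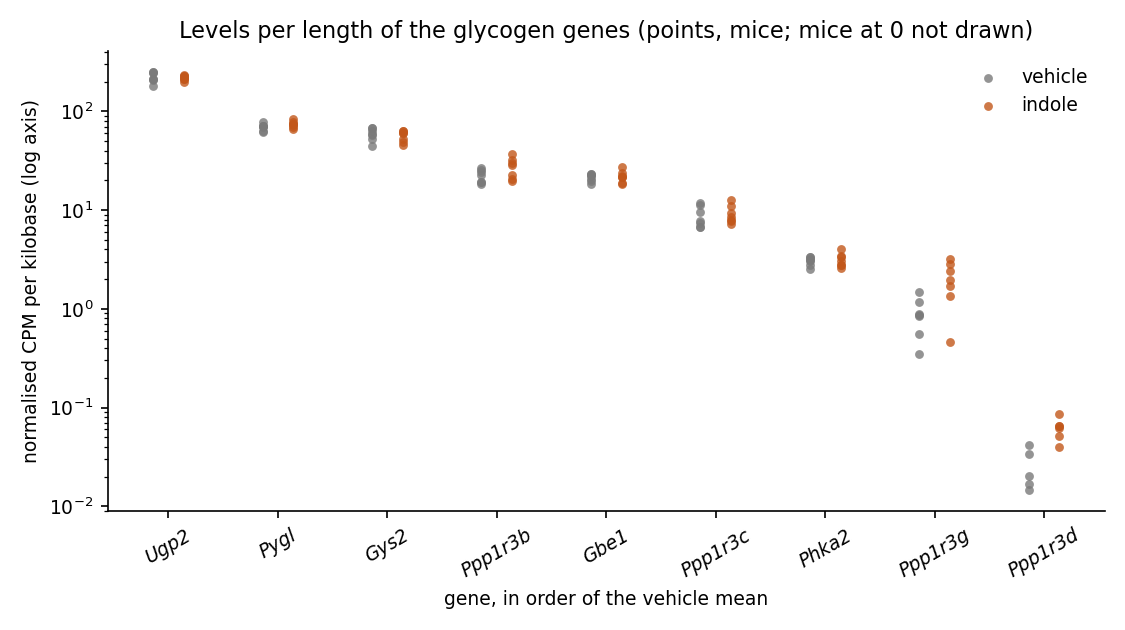
Level of each glycogen gene per kilobase of gene length in each mouse, on a log axis of normalised CPM per kilobase, with genes ordered by their vehicle mean. The 14 points of *Ugp2* lie above all those of *Pygl*, whereas *Ppp1r3d* lies below every other gene in both the vehicle (grey) and the indole (orange) group, and mice with 0 reads are not drawn.

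Within the family of targeting subunits, *Ppp1r3b* was the principal transcript. It made up 69.2%±3.64 of the summed per-kilobase level of 7 targeting subunit genes with vehicle and 69.8%±4.37 with indole (SD, *n*=7 each). *Ppp1r3c* contributed 26.9%±3.60 and 24.2%±5.06, respectively. *Ppp1r3g* contributed 2.68%±0.918 with vehicle and 4.90%±1.71 with indole, and no mouse exceeded 6.39%. *Ppp1r3e* supplied 1.13% of the vehicle sum, and *Ppp1r3d*, *Ppp1r3a* and *Ppp1r3f* together supplied the small remainder.

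The liver isoforms greatly outweighed their counterparts from other tissues. Per kilobase, *Gys2* was 244±71.6 times as abundant as the muscle-type synthase *Gys1* with vehicle and 197±73.1 times with indole (SD, *n*=7 each). *Pygl* exceeded the brain phosphorylase *Pygb* 107±26.4 times and 102.5±24.5 times, respectively, and the muscle phosphorylase *Pygm* had 0 reads in the 14 libraries. The margin was much narrower for the α subunits of phosphorylase kinase, where *Phka2* stood at 4.64±0.983 times *Phka1* with vehicle and 4.90±1.22 times with indole.

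*Ppp1r3g* had the largest log2 fold change between the treatment groups among the 8 genes tested. It lies on chromosome 13 at 35958839 to 35970388 of GRCm38, plus strand (ENSMUSG00000050423), and an annotated antisense gene over it had 0 reads. Vehicle-treated mice had from 0.941 (mouse G11) through a median of 2.32 to 4.01 CPM (G4), and indole-treated mice had from 1.24 (G5) through a median of 5.32 to 8.55 CPM (G14). In the indole group, 5 of 7 mice lay above every vehicle-treated mouse and 6 lay above the vehicle median. Mice G2 (3.68 CPM) and G5 fell inside the vehicle range, so the groups overlapped.

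The means for *Ppp1r3g* were 2.37±1.004 CPM with vehicle and 5.37±2.50 CPM with indole (SD, *n*=7 each), a log2 fold change of 1.19 (SE 0.351), or 2.28-fold. The transcript was scarce, with 17 to 73 reads in a vehicle-treated liver and 19 to 146 in an indole-treated one. Exact Poisson 95% intervals, which cover counting error alone, ran from 9.90 to 27.2 for the 17 reads of G11 and from 123 to 172 for the 146 reads of G14, so counting error does not span the range between mice. Leaving out any single mouse kept the log2 fold change between 1.04 (without G14) and 1.37 (without G4). Marker sums of other cell types differed between mice as well, the 3 erythroid markers, for example, from 186 to 352 CPM with vehicle and from 243 to 989 CPM with indole (highest in G5). With group means subtracted, *Ppp1r3g* was not correlated past the threshold with any of 9 marker sums over the 14 mice. The values were *r*=0.00 for hepatocyte markers (permutation *p*=0.991, adjusted *p*=0.991, rho=0.13, *p*=0.666, adjusted *p*=0.779, *r*=0.16 without G5 and G11) and *r*=−0.36 for erythroid markers (permutation *p*=0.303, adjusted *p*=0.775, rho=−0.19, *p*=0.556, adjusted *p*=0.779, *r*=0.18 without G5 and G11). The smallest adjusted permutation *p* of the 9 was 0.118, for rho=−0.68 with T and NK cell markers (*p*=0.0131), where *r* was −0.38 (permutation *p*=0.235, adjusted *p*=0.775) and −0.51 without G5 and G11.

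**Figure D2:**
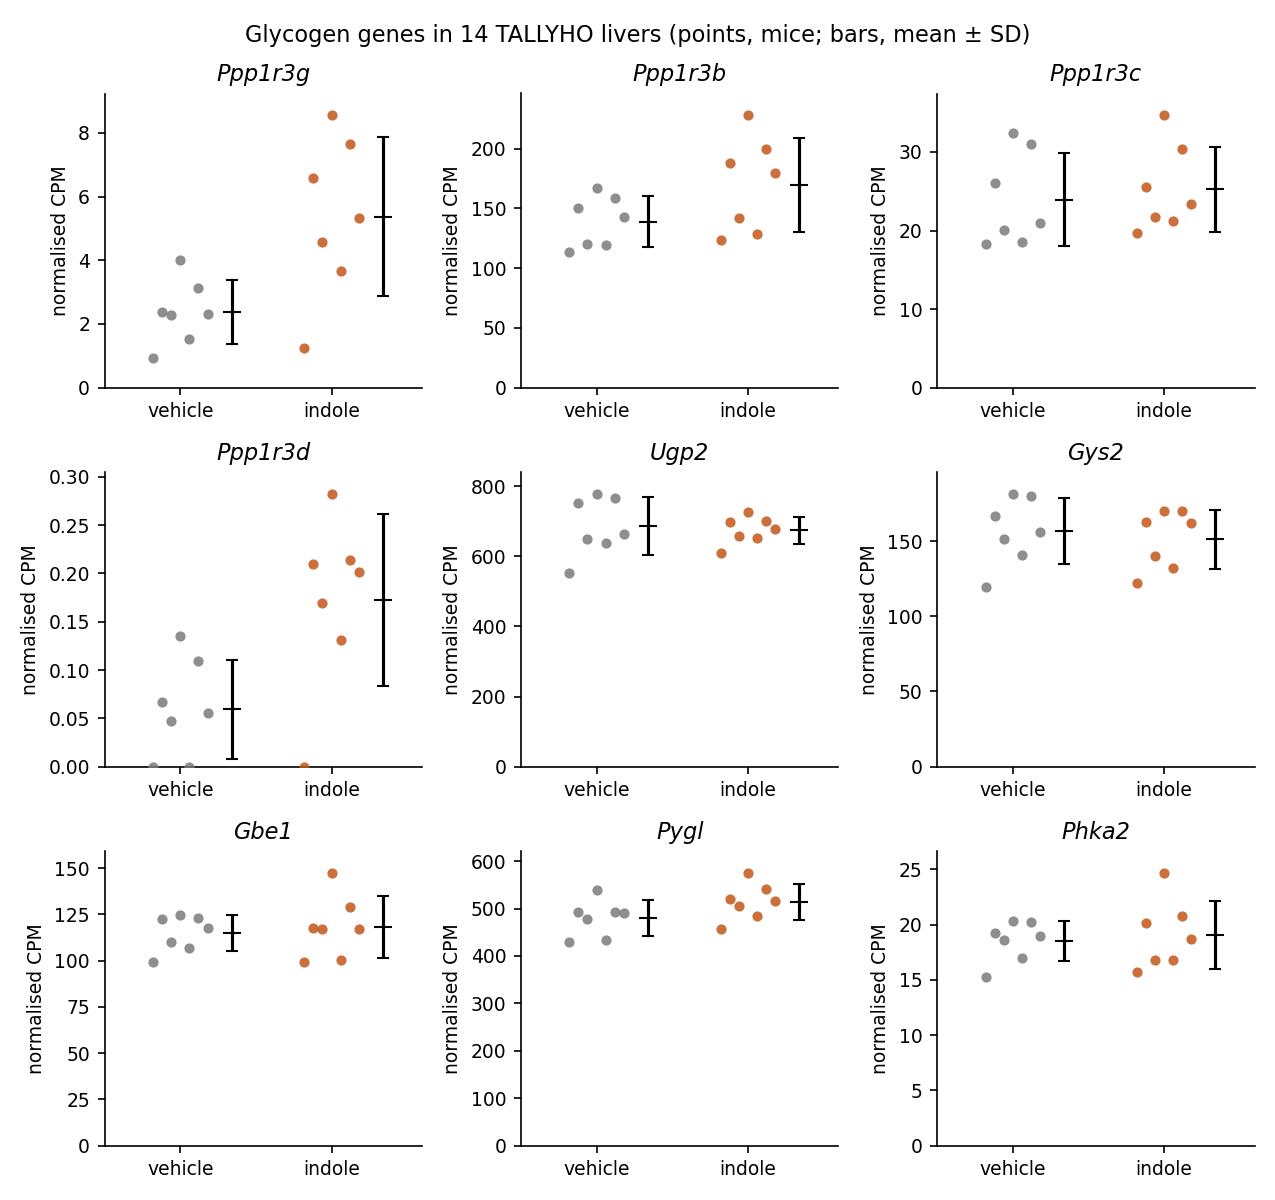
Normalised CPM of the 9 glycogen genes in each mouse (points), with group mean and SD to the right of the points, and each axis starting at 0. For *Ppp1r3g*, 5 of the 7 indole-treated mice lie above the highest vehicle-treated mouse at 4.01 CPM, whereas the points of *Ugp2*, *Gys2*, *Gbe1* and *Phka2* intermingle.

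*Ppp1r3b*, which encodes the subunit long known as the hepatic targeting subunit, is on chromosome 8 at 35375739 to 35388139, plus strand (ENSMUSG00000046794). Its level ran from 113 through a median of 142 to 167 CPM with vehicle, and from 124 through a median of 179.6 to 228 CPM with indole. The indole-treated mice formed an upper set of 4 (G3, G7, G12 and G14), all above the highest vehicle-treated mouse, and a lower set of 3 (G2, G5 and G8) within the vehicle range. The means were 139±21.2 and 169.9±39.4 CPM (SD, *n*=7 each), a log2 fold change of 0.29 (SE 0.135), which stayed between 0.21 and 0.35 when single mice were left out.

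*Ppp1r3c*, encoding the subunit called protein targeting to glycogen, lies on chromosome 19 at 36731731 to 36736653, minus strand (ENSMUSG00000067279). It ranged from 18.3 through 21.0 to 32.4 CPM with vehicle and from 19.6 through 23.4 to 34.7 CPM with indole, and 1 indole-treated mouse (G12) lay above the vehicle range. The log2 fold change was 0.08 (SE 0.155) and changed sign, to −0.01, without G12. The ratio of *Ppp1r3b* to *Ppp1r3c* per kilobase was 2.62±0.496 with vehicle and 3.03±0.803 with indole (SD, *n*=7 each), a gap smaller than either SD.

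*Ppp1r3d*, encoding a more widely expressed targeting subunit on chromosome 2 at 178411206 to 178414472, minus strand (ENSMUSG00000049999), was at the edge of detection. The 7 vehicle-treated mice had 0 to 2 reads each and 7 reads in all, with an exact Poisson 95% interval of 2.81 to 14.4. The indole-treated mice had 0 to 5 reads each and 21 in all, with an interval of 12.999 to 32.1, and mouse G14 had 0. No fold change is given for it, since no vehicle-treated mouse passed the floor of 3 reads.

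The genes of synthesis differed little between the groups. *Ugp2* (chromosome 11 at 21321138 to 21371201, minus strand, ENSMUSG00000001891) ranged from 553 through 662 to 776 CPM with vehicle and from 608 through 676 to 725 CPM with indole, so the indole values lay wholly inside the vehicle range. Its log2 fold change was −0.02 (SE 0.0801). *Gys2* (chromosome 6 at 142422613 to 142473109, minus strand, ENSMUSG00000030244) ranged from 119.6 through 156 to 181 CPM with vehicle and from 122 through 162 to 170.3 CPM with indole, also within the vehicle range. Its log2 fold change was −0.05 (SE 0.0979). *Gbe1* (chromosome 16 at 70313949 to 70569716, plus strand, ENSMUSG00000022707) had a mean of 115±9.57 CPM with vehicle and 118±16.5 CPM with indole (SD, *n*=7 each), and its log2 fold change was 0.04 (SE 0.0856).

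On the side of breakdown, *Pygl* (chromosome 12 at 70190811 to 70231488, minus strand, ENSMUSG00000021069) ran from 429 through 491 to 539.6 CPM with vehicle and from 456 through 515 to 574 CPM with indole. The group ranges overlapped over most of their length, with 2 indole-treated mice above the vehicle range, and the log2 fold change was 0.10 (SE 0.0722). *Phka2* (chromosome X at 160502166 to 160598878, plus strand, ENSMUSG00000031295) had 18.5±1.83 CPM with vehicle and 19.1±3.07 CPM with indole (SD, *n*=7 each), with a log2 fold change of 0.04 (SE 0.0992). The balance of phosphorylase to synthase transcripts, *Pygl* over *Gys2* per kilobase, was 1.21±0.241 with vehicle and 1.32±0.158 with indole.

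Of the 8 glycogen genes tested, 6 had log2 fold changes above 0 and 2 below, with a median of 0.06, and over the 12653 genes the share above 0 was 51.3% with a median of 0.00. An unadjusted *p* below 0.05 from edgeR was found for 2 of the 8, *Ppp1r3g* and *Ppp1r3b*, both higher with indole, where the background share is 3.81% in either direction and 1.53% for genes higher with indole. DESeq2 gave the same 2 genes, against a background of 3.19% in either direction and 1.4% for genes higher with indole. These genes were picked with this comparison in view, so nothing is read from that count, and none of the 8 had an adjusted *p* below 0.05. The ranges of the 2 groups overlapped for all 9 genes, and did not overlap for 6 of the 12653 genes tested (0.0474%).

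The remaining genes of glycogen metabolism were listed by role. Of 33 symbols, 32 were found and 27 were tested, with 15 log2 fold changes above 0, 12 below 0 and a median of 0.02. Of the 27, 24 lay within 0.15 of 0, the others being *Nhlrc1* (−0.38), *Gys1* (0.31) and *G6pc* (0.26), where the 5th to 95th percentile range of all genes tested was −0.29 to 0.31. None had an adjusted *p* below 0.05 in edgeR or DESeq2. *Nhlrc1*, which encodes the ubiquitin ligase malin of Lafora disease, was the 1 gene with an unadjusted *p* below 0.05 (0.0470, adjusted *p*=0.998 from edgeR), at 3.51±0.788 CPM with vehicle and 2.70±0.566 CPM with indole (SD, *n*=7 each; log2 fold change −0.38, SE 0.178). The background share of genes with an unadjusted *p* below 0.05 was 3.81%, and 2.28% for genes lower with indole.

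Compared per kilobase, *Ppp1cc* was the leading catalytic subunit of protein phosphatase 1, at 14.4±0.944 CPM per kilobase with vehicle and 13.2±0.629 with indole (SD, *n*=7 each). None of the 7 indole-treated mice lay above its vehicle median, and the log2 fold change was −0.12 (SE 0.0631, unadjusted *p*=0.0737, adjusted *p*=0.998 from edgeR). The same held for the vehicle median of the synthase kinase *Gsk3a*, and the share of all genes with this pattern was not computed. *Slc37a4*, the glucose 6-phosphate transporter of the endoplasmic reticulum, led its role at 100.03±9.86 and 102.03±5.62 CPM per kilobase, respectively. *Stbd1*, which encodes a glycogen-binding protein, had 39.6±4.26 and 40.1±6.44 CPM per kilobase. The log2 fold changes of other genes with the highest level per kilobase of their role, *Ppp1r3e*, *Gyg* (the glycogenin primer), *Pgm2* and *Gsk3a* (a synthase kinase), were −0.04, 0.02, −0.11 and −0.05, in that order. *Pgm2* led only among tested genes. The other phosphoglucomutase gene listed had 12 reads over the 14 libraries, and whether its reads were lost or misplaced was not tested.

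**Figure D3:**
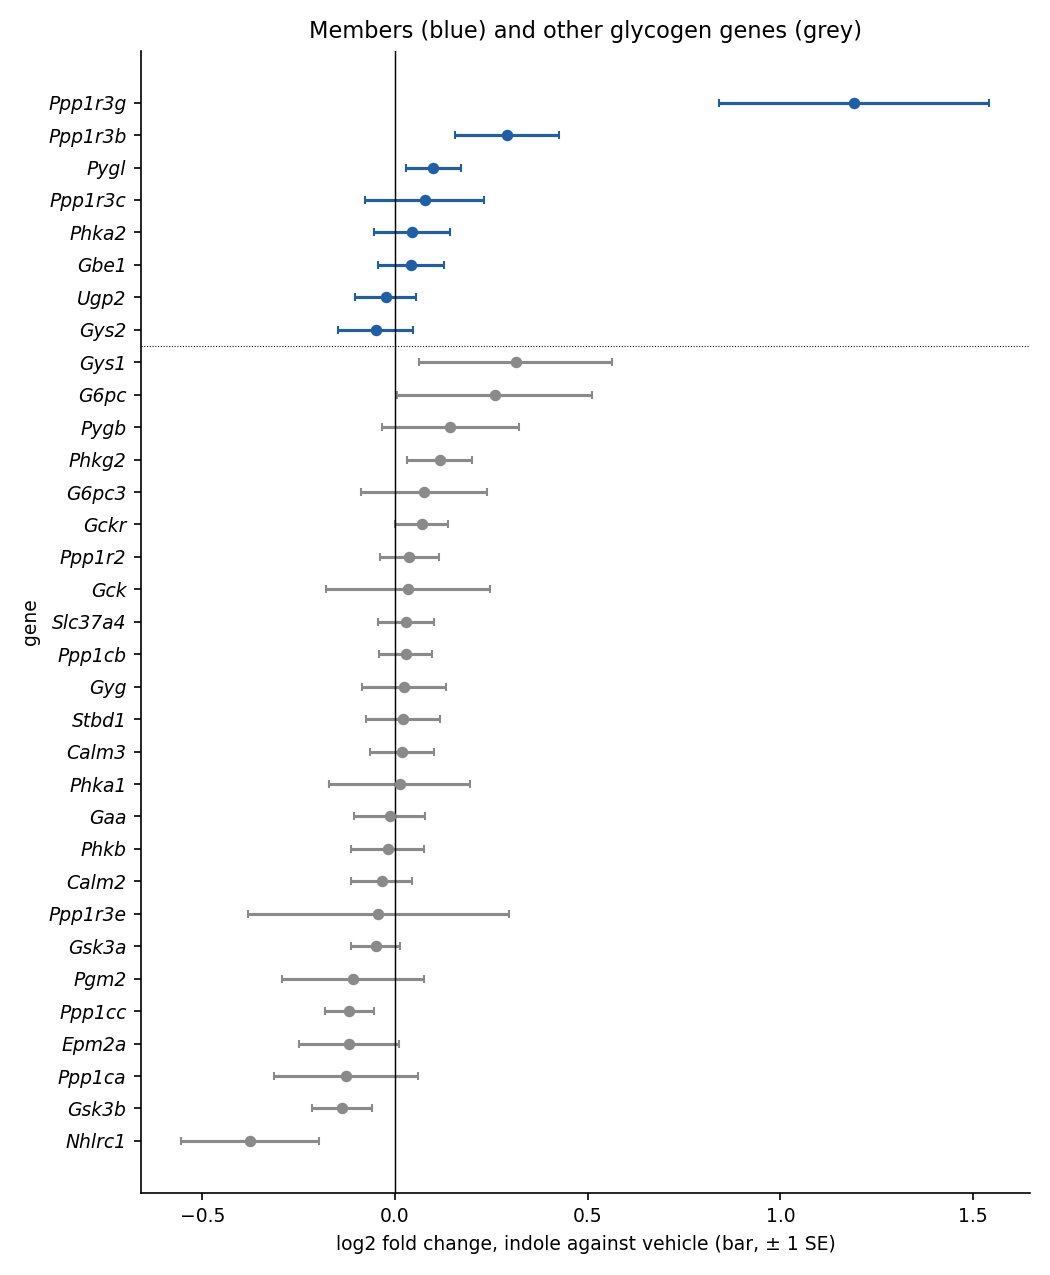
Log2 fold change (indole against vehicle, bars ± 1 SE) of the 8 glycogen genes tested (blue) and of 25 other genes of glycogen metabolism (grey). *Ppp1r3g* at 1.19 lies far to the right of the others, which run from −0.38 (*Nhlrc1*) to 0.31 (*Gys1*).

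Within a group, mice differed more in 3 targeting subunits, *Ppp1r3g*, *Ppp1r3c* and *Ppp1r3b*, than in most genes of like level. *Ppp1r3e*, which also passed the filter, was not compared in this way. The coefficient of variation of *Ppp1r3g* was 42.4% with vehicle and 46.5% with indole, whereas counting error alone would give 15.4% and 10.3%. For *Ppp1r3g* it exceeded that of 90.0% and 95.2% of genes within 2-fold of its level. Leaving out a single mouse brought it down to 33.0% at the lowest with vehicle, and to 30.9% with indole (without G5). The medians of genes of like level, with no mouse left out, were 25.9% and 20.4%. The lowered values were not ranked against those genes. *Ppp1r3c* varied by 24.8% and 21.6%, against medians of 11.3% and 12.5% for genes of like level. For *Ppp1r3b* the values were 15.2% and 23.2%, against 9.73% and 11.3%.

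*Gys2* (14.03% and 13.01%) also lay above the median of its like in both groups, against 9.74% and 11.3%. By contrast *Pygl* varied by 8.02% and 7.42%, below the medians of 10.5% and 12.1% for its level. *Ugp2* varied by 12.05% with vehicle and 5.70% with indole, against medians of 10.6% and 12.3%.

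To ask whether the glycogen genes varied together between mice, the group mean was subtracted from log2 CPM and each of 28 pairs was correlated over the 14 mice, a variation that the choice of genes did not use. Pearson's *r* was above 0 in 26 of the 28 pairs, with a median of 0.28. An unadjusted permutation *p* below 0.05 was found for 5 pairs, and 0 passed after Benjamini–Hochberg adjustment over the 28 pairs, the smallest adjusted *p* being 0.0597. With Spearman's rho the smallest adjusted *p* was 0.121. The 14 mice are shared by all pairs, so the pairs are not independent of each other. Within the vehicle group alone *r* was below 0 for several pairs, down to −0.56 for *Gbe1* with *Phka2* (0.53 within the indole group). Within the indole group alone the lowest *r* was −0.02, for *Ugp2* with *Gys2*. Indole-treated mouse G5 lay below its group mean for every gene correlated. The share of positive pairs among other genes was not computed.

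*Ppp1r3g* was correlated positively with each of the 7 other genes, with *r* from 0.27 (*Pygl*) to 0.70 (*Gys2*), though with *Pygl* the sign turned without G5 (*r*=−0.12) and was negative within the vehicle group (−0.27), and with *Gbe1* *r* went from 0.48 to 0.25 without G5. Its *r* with 11692 expressed genes had a median of 0.00 and a 5th to 95th percentile range of −0.53 to 0.58. With *Ppp1r3b* it gave *r*=0.67 (permutation *p*=0.0121, adjusted *p*=0.0846) and rho=0.76 (*p*=0.00432, adjusted *p*=0.121). This pair lay on the same side of both group means in 11 of 14 mice, with *r*=0.36 within the vehicle group and 0.81 within the indole group. Its *r* was 0.77 without the 2 mice farthest from the *Ppp1r3g* median (G5 and G11). Without G5 alone it was 0.54, and without G11 alone 0.77. The pair *Ppp1r3g* and *Gys2* (*r*=0.70, permutation *p*=0.00582, adjusted *p*=0.0597, rho=0.51, *p*=0.0739, adjusted *p*=0.295) rested on those 2 mice, since *r* was 0.31 without them. With *Ugp2*, *Ppp1r3g* had *r*=0.54 (permutation *p*=0.0277, adjusted *p*=0.155) and rho=0.53 (*p*=0.0530, adjusted *p*=0.247), and *r*=0.48 without G5 and G11.

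*Ppp1r3b* and *Phka2* gave the highest correlation of the 28 (*r*=0.74, permutation *p*=0.00640, adjusted *p*=0.0597, rho=0.73, *p*=0.00932, adjusted *p*=0.130), with 0.73 and 0.75 within the vehicle and indole groups and 0.60 without G5 and G8. *Gbe1* and *Pygl*, the branching enzyme and the phosphorylase, were close behind (*r*=0.73, permutation *p*=0.00413, adjusted *p*=0.0597, rho=0.63, *p*=0.0239, adjusted *p*=0.223), with 0.59 and 0.87 within the groups and 0.55 without G5 and G14. Both pairs passed the adjusted threshold when indole-treated mouse G12 was left out (adjusted *p*=0.0146 and 0.0416, permutation test), and *Gbe1* with *Pygl* also without vehicle-treated mouse G10 (adjusted *p*=0.0168, permutation test). With group means subtracted, *Gbe1* and *Pygl* had *r* of −0.68 and −0.36 with summed stellate cell markers, and 0.46 and 0.30 with summed hepatocyte markers. Whether tissue make-up lay behind the pair was not tested. *Gys2* and *Pygl*, the opposed enzymes, gave no correlation that passed the test (*r*=−0.09, permutation *p*=0.763, adjusted *p*=0.792, rho=−0.24, *p*=0.428, adjusted *p*=0.599, and *r*=−0.41 without G5 and G11), with −0.55 within the vehicle group and 0.45 within the indole group.

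**Figure D4:**
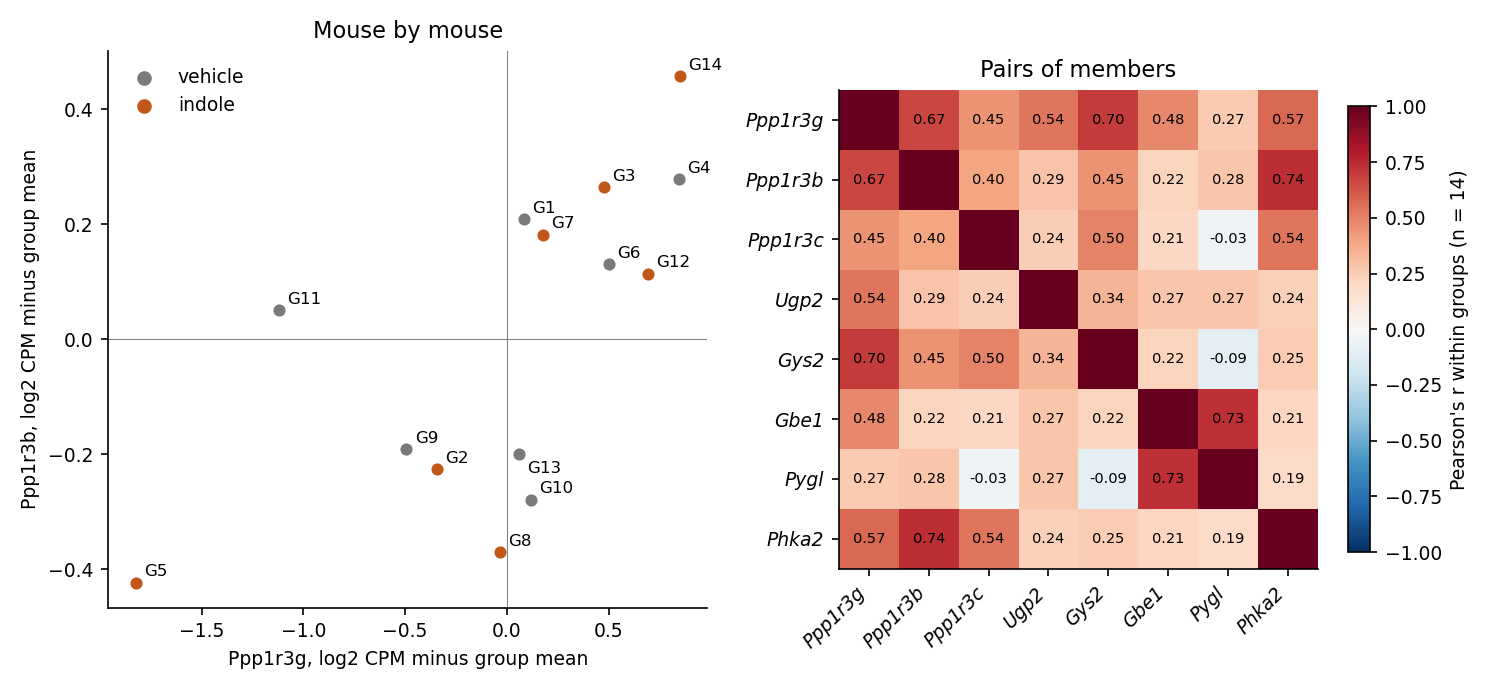
Left, *Ppp1r3b* against *Ppp1r3g* in each mouse as log2 CPM minus the group mean, with vehicle in grey and indole in orange, and 11 of the 14 mice on the same side of both means. Right, Pearson's *r* within groups for the 28 pairs of glycogen genes, of which 26 are above 0, with the darkest red off the diagonal at *Ppp1r3b* with *Phka2* (0.74) and *Gbe1* with *Pygl* (0.73).

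Targeting subunit transcripts are known to follow nutritional state, so 3 of them were correlated with 15 transcripts that are known to move with fasting, feeding, time of day or glucocorticoids. Of these 45 pairs, 2 had an unadjusted permutation *p* below 0.05 and 0 passed after adjustment. *Ppp1r3b* with *Ppargc1a*, the fasting-induced coactivator, gave *r*=0.70 (permutation *p*=0.0114, adjusted *p*=0.512) and rho=0.78 (*p*=0.00258, adjusted *p*=0.116), with 0.94 and 0.61 within the vehicle and indole groups and 0.77 without G5 and G8. With the other fasting genes among the 15, *r* of *Ppp1r3b* ran from −0.23 to 0.41, and from −0.36 to 0.83 without G5 and G8. Within the vehicle group it ran from −0.18 to 0.92, and within the indole group from −0.44 to 0.38. The fasting genes thus differed among themselves, and whether they share a pattern with *Ppp1r3b* was not tested. *Ppp1r3g* with the clock gene *Arntl* gave *r*=−0.57 (permutation *p*=0.0326, adjusted *p*=0.733) and rho=−0.60 (*p*=0.0289, adjusted *p*=0.388), with −0.81 and −0.40 within the groups and −0.52 without G5 and G11.

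After *Arntl*, the largest absolute *r* with *Ppp1r3g* belonged to *Nr1d1*, another clock gene (*r*=−0.50, permutation *p*=0.0931, adjusted *p*=0.739, rho=−0.57, *p*=0.0344, adjusted *p*=0.388, *r*=−0.54 without G5 and G11), and *Ppargc1a* (*r*=0.48, permutation *p*=0.137, adjusted *p*=0.739, rho=0.62, *p*=0.0285, adjusted *p*=0.388, *r*=0.78 without G5 and G11). For the other time-of-day genes *r* with *Ppp1r3g* was above 0, at 0.36 and 0.21, and was −0.01 and 0.11, respectively, without G5 and G11. With the other fasting genes *r* of *Ppp1r3g* ran from −0.19 to 0.05, and from −0.02 to 0.46 without G5 and G11. Hours of dissection are not given in the sources used here, so time of day was not tested.

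Among 11692 genes with a mean of at least 1 CPM, those most like *Ppp1r3g* by *r* over the 14 mice were *Gypc* (0.90), *Gm19522* (0.89), *Zfp143* (0.88), *Rp2* (0.87) and *Minpp1* (0.87). Those most like *Ppp1r3b* were *Mrtfb* (0.85), *Dclre1a* (0.85) and *Dusp11* (0.84), and those most like *Ppp1r3c* were *Kidins220* (0.91), *Usp7* (0.90) and *Phtf2* (0.89). These are the top of a long ranking over the same mice and are given without a test. The lists of the 3 subunits named no gene in common. Lists this short are drawn from 11692 genes, so nothing is read from that.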

How the data were processed

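Liver RNA of 14 TALLYHO mice was analysed, grouped by the treatment in the labels (7 vehicle, 7 indole). Per the labels, libraries were strand-specific and poly(A)-selected. The authors aligned reads with HISAT2 to GRCm38 and deposited raw counts of uniquely mapped reads per gene with Ensembl annotation. The counting tool and its strand setting are not given in the sources used here. Reads shared by overlapping or similar genes may therefore be lost or misplaced. No column of counts was left out.

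From these counts, edgeR 4.0.16 in R 4.3.3 (TMM, filterByExpr, robust quasi-likelihood test, Benjamini–Hochberg adjustment) was run on all 12653 genes that passed the filter, after testing on simulated data. Levels are TMM-scaled CPM, divided by the deposited gene length where genes are compared. Correlations used log2 CPM (prior count 2) minus the group mean and 100000 permutations of mice within groups. Correlations of *Ppp1r3g*, *Gbe1* and *Pygl* with marker sums were chosen after seeing the data. Alternatives were DESeq2 1.42.0, limma voom (limma 3.58.1) with quality weights, scaling by RLE or upper quartile, no filter, a filter at a mean of 10 counts and leaving out each mouse.

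Each mouse gave 15197498 to 21060376 counted reads, so counting error is small for the abundant enzymes and large for *Ppp1r3d*. A floor of 3 reads was used. Nothing in the labels gives a batch. The 9 genes and the gene lists were chosen with earlier results of these data known. Besides the 9 genes and the counterparts of the liver isoforms, those named were other glycogen genes with an unadjusted *p* below 0.05 or the highest level per kilobase of their role (some are not reported here), the 3 nutritional or clock genes with the largest absolute *r* with *Ppp1r3g*, and the genes most like each targeting subunit. Promoter sequences are from RefSeq (GRCm38.p6), searched with Python 3.11.15.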

Additional observations from a re-analysis of the deposited data

How the results depend on the processing

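The log2 fold changes of *Ppp1r3g* (1.19 to 1.33) and *Ppp1r3b* (0.29 to 0.34) kept their direction under DESeq2, limma voom, other scalings and other filters, and no tested glycogen gene changed sign there. With single mice left out, *Ppp1r3c*, *Gbe1* and *Phka2* each changed sign once (lowest −0.01, −0.02 and −0.02) and *Ugp2* changed sign 4 times (highest 0.01). No filter on low counts raised the genes with an unadjusted *p* below 0.05 from 482 to 1336 of 22535, and leaving out single mice gave 386 to 627. The 2 glycogen genes with an unadjusted *p* below 0.05 became 1 to 2 when single mice were left out, *Ppp1r3b* being lost without G3, G7, G9, G10, G11, G12, G13 or G14. Nothing is read from these counts either, since the genes were picked with this comparison in view. Among the other glycogen genes the number with an unadjusted *p* below 0.05 went from 1 to 0 with RLE scaling, upper quartile scaling or no filter. Without single mice it was 0 to 2. The cause was not tested. Pairs of glycogen genes that passed the adjusted threshold numbered 0 to 2 without single mice, and genes more variable than their like in both groups numbered 3 to 4. No paired analysis was run because the labels name no pairs of mice across the 2 groups. Depth limits *Ppp1r3g* and *Ppp1r3d*, whose reads are few. Labels do not say whether mice shared a cage or litter.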

Other observations

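*G6pc*, the glucose 6-phosphatase catalytic subunit that releases the glucose made from glycogen, varied widely between mice. Vehicle-treated mice had from 103 through a median of 141 to 239 CPM, and indole-treated mice had from 113 through a median of 151 to 344 CPM. The log2 fold change was 0.26 (SE 0.253, adjusted *p*=0.998 from edgeR), and the group ranges overlapped. The gene was picked for mention after its values were seen.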
